A study of Mus musculus with 10 samples.

Results

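The genes described here encode the machinery of DNA replication and mitosis. They were chosen as rows of the deposited gene table whose symbol was on a list of 54 genes. The table held 52 of the 54, among 15900 genes in all, and Ccnb1 and Foxm1 were not analysed here. Capped transcript ends were counted by CAGE, cap analysis of gene expression, in the whole hippocampus of male ICR mice. Status epilepticus (SE) was induced with pilocarpine (PILO) at 290 mg/kg in mice 9 to 10 weeks old, 30 min after methyl scopolamine at 1 mg/kg. SE was defined by 5 generalized convulsive seizures and was ended with diazepam at 10 mg/kg. The groups were pre-SE, SE 6 h, SE 2 days, SE + LEV 6 h and SE + LEV 2 days, with 2 mice in each. Levetiracetam (LEV), an anti-epileptic drug, was given by mouth at 360 mg/kg after the diazepam, 1 time in the SE + LEV 6 h mice and 5 times in the SE + LEV 2 days mice. The pre-SE mice are labelled untreated, whereas the study's methods describe control mice given saline in place of PILO.

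Cells copy their DNA in S phase, when the Mcm helicase is loaded on origins and polymerases with the sliding clamp Pcna follow it. They divide in M phase, when Cdk1 bound to a B-type cyclin drives chromosome condensation and spindle assembly, and checkpoint proteins hold the cell until all chromosomes are attached. In the adult hippocampus few cells divide, mainly progenitors of the dentate gyrus and glia, and most neurons are postmitotic. Replication genes are classical targets of E2F transcription factors, whereas many mitosis genes carry a cell cycle genes homology region (CHR) and CCAAT boxes near their start.

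Inferred from the steps of the values, the libraries held 10540698 to 51710968 tags (median 26671413), so that 3 tags corresponded to 0.058 to 0.285 CPM. CPM divide each tag count by its library's total, on a common scale. Since a CAGE tag marks 1 transcript start, CPM does not scale with transcript length. The neuronal marker Snap25 stood between 1297 and 2898 CPM in all 10 libraries. Ttr, the leading choroid plexus transcript, ranged from 4.33 to 3936 CPM and differed widely between the mice of each group. All 52 members reached 0.1 CPM in 2 or more libraries, the condition for being tested, as did 15851 genes in all. No member was at or under 3 tags in every library, although 14 were in at least 1 library.

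The stretches around the start of 7 members on which the results turn are given from RefSeq (GRCm38.p6), from 160 bases before to 30 bases after the annotated start, 5′ to 3′ on the strand of the gene. Capitals mark E2F motifs (TTTCCCGC, TTTCGCGC, TTTGCCGC or TTTGGCGC) and CHR motifs (TTTGAA or TTCGAA), searched on both strands. Cdk1, Ccnb2 and Top2a were shown for mitosis, Mcm5 and Mcm6 for replication, and Cenpa and Pcna because they were the members called at 6 h. The Pcna stretch held none of these letters.
Cdk1 (chr10:69352883-69353072, minus strand): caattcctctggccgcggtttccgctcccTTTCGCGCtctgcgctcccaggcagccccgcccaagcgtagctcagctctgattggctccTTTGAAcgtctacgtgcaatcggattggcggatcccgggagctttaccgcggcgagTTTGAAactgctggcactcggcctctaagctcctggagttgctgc
Ccnb2 (chr9:70421525-70421714, minus strand): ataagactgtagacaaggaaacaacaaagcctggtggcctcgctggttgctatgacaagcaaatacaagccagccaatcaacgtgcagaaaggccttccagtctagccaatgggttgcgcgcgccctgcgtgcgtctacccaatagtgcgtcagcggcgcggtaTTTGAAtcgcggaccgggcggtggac
Top2a (chr11:99024160-99024349, minus strand): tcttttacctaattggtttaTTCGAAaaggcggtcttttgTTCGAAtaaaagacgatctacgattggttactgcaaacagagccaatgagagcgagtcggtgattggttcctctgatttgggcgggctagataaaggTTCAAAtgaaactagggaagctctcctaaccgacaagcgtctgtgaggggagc
Mcm5 (chr8:75109349-75109538, plus strand): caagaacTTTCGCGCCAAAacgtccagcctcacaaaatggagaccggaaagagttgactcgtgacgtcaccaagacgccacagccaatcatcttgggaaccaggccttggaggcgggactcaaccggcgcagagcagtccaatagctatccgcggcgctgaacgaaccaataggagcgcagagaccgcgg
Mcm6 (chr1:128359676-128359865, minus strand): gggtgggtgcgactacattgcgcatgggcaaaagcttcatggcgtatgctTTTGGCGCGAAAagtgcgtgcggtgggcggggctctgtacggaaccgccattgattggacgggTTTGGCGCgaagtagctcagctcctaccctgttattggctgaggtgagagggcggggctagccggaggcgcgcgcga
Cenpa (chr5:30666726-30666915, plus strand): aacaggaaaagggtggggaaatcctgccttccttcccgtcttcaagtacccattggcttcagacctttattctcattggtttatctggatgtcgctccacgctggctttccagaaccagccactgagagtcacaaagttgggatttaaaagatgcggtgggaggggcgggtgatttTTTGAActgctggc
Pcna (chr2:132253151-132253340, minus strand): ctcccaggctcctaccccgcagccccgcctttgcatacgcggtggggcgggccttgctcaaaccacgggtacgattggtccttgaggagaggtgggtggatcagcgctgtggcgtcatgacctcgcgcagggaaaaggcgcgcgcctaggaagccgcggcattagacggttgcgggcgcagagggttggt

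The promoter table covered 42 of the 52 members with 50 windows of 300 bases, 250 before and 50 after the start. Aurkb, Ccna2, Ccnd1, Ccne2, Gins1, Gins2, Kif20a, Mcm4, Pole and Tpx2 had no entry. An E2F motif was held by 12 of the 50 windows (24%), beside 2.26% of all 32851 windows. By gene, it was found in 11 of 24 replication members, in 0 of 15 mitosis members and, among the cyclins and Cdk1, in 1 of 3, namely Cdk1. The replication members with this motif were Cdc6, Cdt1, Dnmt1, Lig1, Mcm3, Mcm5, Mcm6, Mcm7, Pola1, Rfc3 and Uhrf1. A CHR was held by 40% of member windows and 19.2% of all windows, in 11 of 15 mitosis and 6 of 24 replication members. The CCAAT box (CCAAT) was held by 66% of member windows and 37.4% of all windows. Sites of different motifs overlapped at 1 place in the member windows. A match is a description of letters and was not tested as a binding site.

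At 6 h after SE the members called higher were Pcna and Cenpa, and no other member was called. Of the 52 members, 2 were called higher in SE 6 h against pre-SE, beside 2.76% of all genes tested (limma, adjusted p of at most 0.05 over all 15851 genes). No member was called lower by limma, while 3 had an unadjusted p under 0.05 on the higher and 6 on the lower side. The median difference in log2(CPM + 0.1) was -0.24 for the members and -0.13 for all genes. Both SE 6 h mice were below both pre-SE mice in 20 members and above them in 8, beside 31.3% and 18.6% of all genes. With libraries rescaled by median of ratios the median of all genes was -0.005 and that of the members -0.12, with the same number called. In a bulk sample more cells of a type and more RNA per cell cannot be told apart.

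Pcna, the sliding clamp of replicative polymerases that also acts in DNA repair, had 44.4 and 44.7 CPM in the pre-SE mice and 92.2 and 160 CPM in the SE 6 h mice. The groups did not overlap, and the log2 difference was 1.45 ± 0.33 (standard error, n = 2 and 2, adjusted p = 0.048 by limma). In the SE + LEV 6 h mice Pcna stood at 74.6 and 44.5 CPM, so that 1 mouse was at the pre-SE level. At 2 days it stood at 94.1 and 91.5 CPM in SE mice and at 88.1 and 58.9 CPM in SE + LEV mice, all above both pre-SE mice, with a log2 difference of 1.06 ± 0.33 for SE 2 days (adjusted p = 0.10).

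Cenpa, the histone H3 variant of centromeres, had a time course unlike that of the other mitosis members. It stood at 4.10 CPM in both pre-SE mice and at 23.7 and 34.9 CPM in the SE 6 h mice, a log2 difference of 2.78 ± 0.56 (n = 2 and 2, adjusted p = 0.028 by limma). In SE + LEV 6 h it stood at 94.1 and 22.5 CPM and was the 1 member called higher against pre-SE (log2 difference 3.46 ± 0.56, adjusted p = 0.037), where 0.315% of all genes were called. At 2 days it was at 12.7 and 21.4 CPM in SE mice and at 20.7 and 14.8 CPM in SE + LEV mice. Both SE 2 days mice were thus below both SE 6 h mice and above both pre-SE mice, and neither difference was called (adjusted p = 0.46 and 0.072).

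The calls at 6 h rested on single libraries and settings. Without either pre-SE mouse or either SE 6 h mouse, 0 members were called, and Pcna lost its call in 12 of 19 alternatives, Cenpa in 5 of 19. The call of Cenpa in SE + LEV 6 h was lost without either pre-SE mouse, without either SE 6 h mouse, without SE + LEV 6 h mouse 1 and without either SE 2 days mouse.

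The other members at 6 h included Mki67, a nuclear protein of cycling cells, at 0.41 and 0.64 CPM in pre-SE mice and 0.19 and 0 CPM in SE 6 h mice (log2 difference -1.85 ± 0.63, adjusted p = 0.17). Tk1, the thymidine salvage kinase, was at 0.21 and 0.17 CPM before SE and at 0.03 and 0 CPM at 6 h, that is 1 and 0 tags. Rrm1, the large subunit of ribonucleotide reductase, was at 17.3 and 12.8 CPM before SE and at 27.3 and 32.0 CPM at 6 h (log2 difference 0.99 ± 0.37, adjusted p = 0.20). In none of these did the pre-SE and SE 6 h mice overlap, and in none was the difference called.

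**Figure D1:**
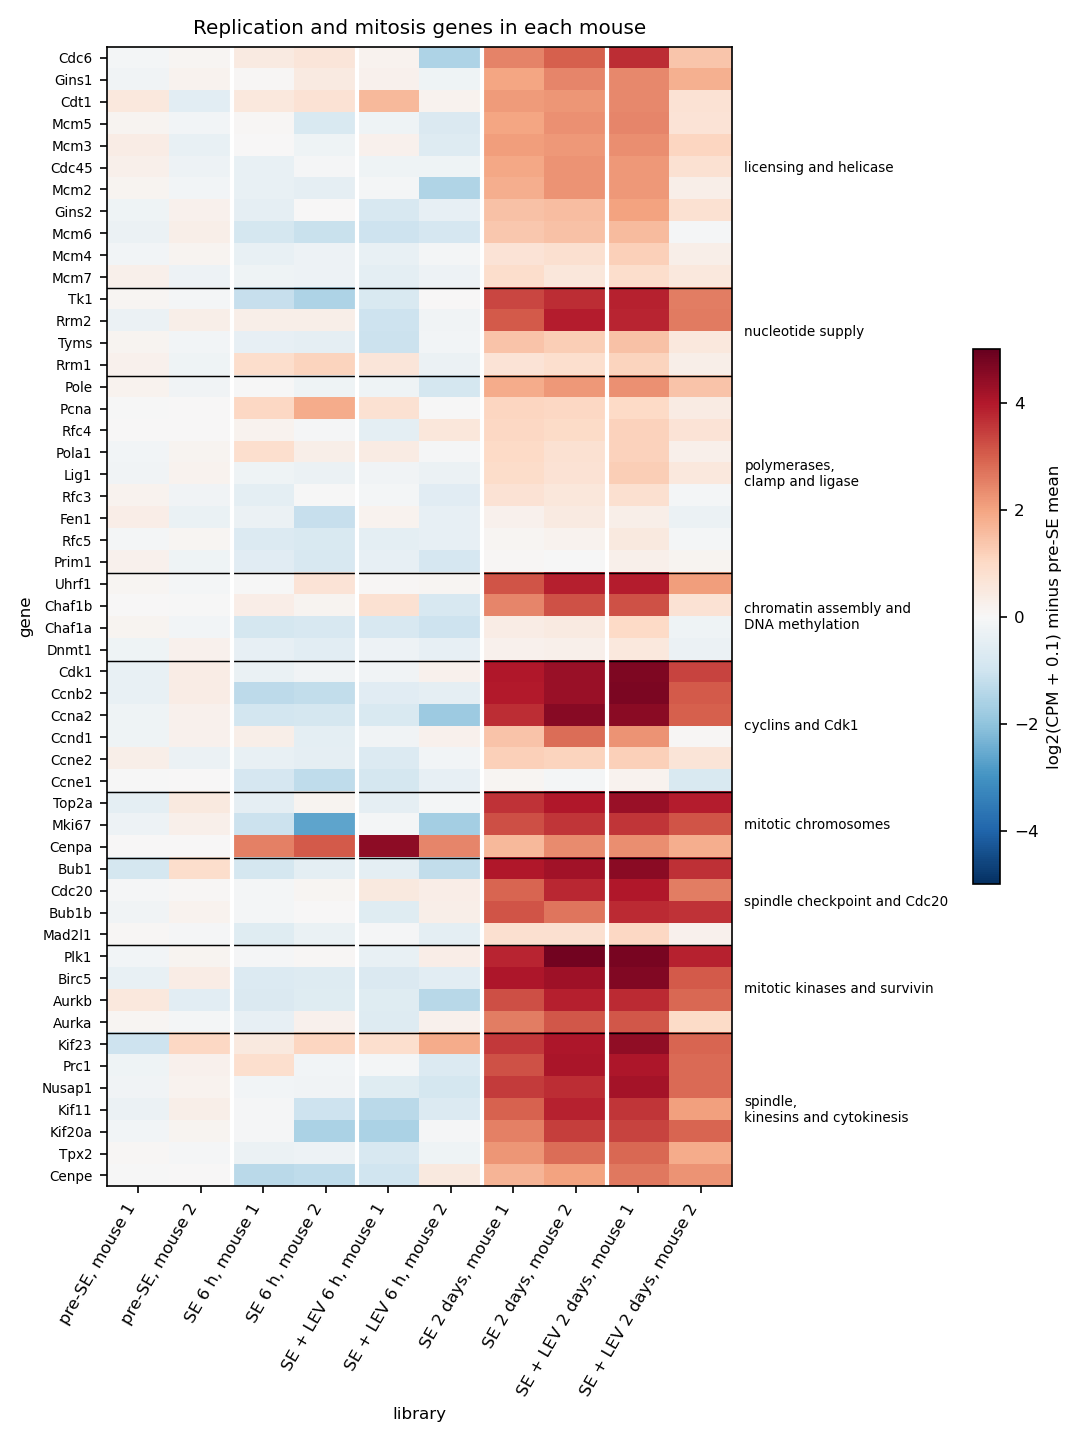
Log2(CPM + 0.1) of each of the 52 members (rows, grouped by role) in each of the 10 mice (columns), minus the mean of the 2 pre-SE mice, so that red is higher and blue lower than pre-SE. The 4 columns of the 2 days mice are red in most rows, and SE + LEV 2 days mouse 2 is paler than mouse 1. At 6 h Cenpa is red in every mouse, and Pcna in all but SE + LEV 6 h mouse 2.

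At 2 days after SE most mitosis members and fewer of the replication members were called higher than before SE. In SE 2 days against pre-SE 26 of the 52 members were called higher, beside 5.07% of all genes tested, and 0 were called lower by limma, also at an unadjusted p under 0.05. The log2 difference had a median of 2.13 over the members and -0.03 over all genes tested, and 51 of 52 members had a positive one. The groups did not overlap, with SE 2 days higher, in 47 of 52 members and in 26.3% of all genes. The mitosis members, leaving aside cyclins and Cdk1, had 15 of 18 called and a median log2 difference of 3.40, and the replication members 8 of 28 and a median of 1.36. Without pre-SE mouse 1, 15 members were called, and without SE 2 days mouse 2, 9 were.

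**Figure D2:**
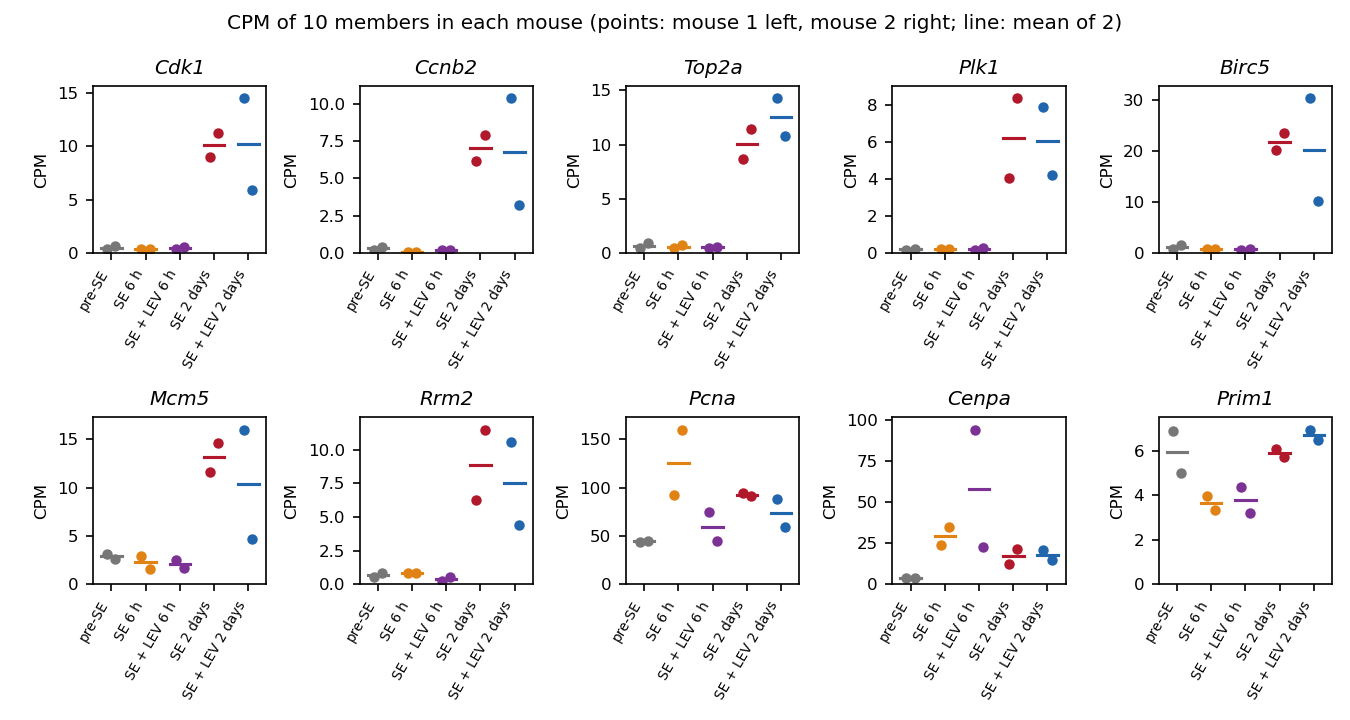
CPM of 10 members in each mouse of the 5 groups, each panel with its own linear axis from 0; points are mice and lines the mean of 2 mice. Cdk1, Ccnb2, Top2a, Plk1, Birc5, Mcm5 and Rrm2 are higher in each of the 4 mice at 2 days than in each of the other 6 mice. Pcna and Cenpa are also high at 6 h, except for Pcna in SE + LEV 6 h mouse 2. The SE 2 days mice of Prim1 lie within its pre-SE range.

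Cdk1, the kinase that starts mitosis, was at 0.34 and 0.64 CPM in pre-SE mice, at 0.35 and 0.41 CPM in SE 6 h mice and at 9.03 and 11.3 CPM in SE 2 days mice. Its mean CPM was 20.7-fold that of pre-SE mice, and the log2 difference was 4.16 ± 0.49 (adjusted p = 0.0014). Its B-type cyclin Ccnb2 went from 0.21 and 0.41 CPM to 6.19 and 7.88 CPM (log2 difference 4.16 ± 0.55), with 0.06 and 0.07 CPM at 6 h. Ccna2, the cyclin of S phase and G2, went from 0.48 and 0.68 CPM to 8.61 and 15.8 CPM (log2 difference 4.13 ± 0.58). These 3 were called, and no pre-SE or SE 6 h mouse reached the level of any 2 days mouse.

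The G1 cyclins were not called against pre-SE. Ccnd1, the cyclin D that answers growth factors, was at 9.79 and 13.0 CPM before SE and at 30.2 and 78.7 CPM at 2 days (log2 difference 2.10 ± 0.65, adjusted p = 0.098). Ccne1, which drives entry into S phase, was at 13.7 and 14.4 CPM before SE and at 14.9 and 13.0 CPM at 2 days (log2 difference -0.01 ± 0.36). Ccne2 was at 6.14 and 4.10 CPM before SE and at 11.7 and 11.0 CPM at 2 days (log2 difference 1.16 ± 0.35, adjusted p = 0.094). Ccnd1 and Ccne2 did not overlap their pre-SE range, and Ccne1 overlapped its pre-SE range.

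All 4 mitotic kinases and survivin were called. Plk1, the polo-like kinase of mitotic entry and exit, had the largest log2 difference of all members, 4.31 ± 0.50 (adjusted p = 0.0014), from 0.17 and 0.23 CPM to 4.03 and 8.36 CPM. Birc5, survivin, which places the chromosomal passenger complex, went from 0.86 and 1.51 CPM to 20.2 and 23.6 CPM (4.14 ± 0.50). Aurkb, the kinase of that complex, went from 0.28 and 0.08 CPM to 2.33 and 3.73 CPM (3.54 ± 0.54). Aurka, the kinase of centrosomes and spindle poles, went from 0.97 and 0.81 CPM to 5.72 and 8.45 CPM (2.84 ± 0.65, adjusted p = 0.031). The lowest 2 days mouse lay above the highest pre-SE mouse in each of these.

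Of the spindle checkpoint, Bub1 went from 0.03 and 0.33 CPM, 1 and 17 tags, to 3.73 and 4.25 CPM (log2 difference 4.11 ± 0.60). Bub1b, its partner in the checkpoint, went from 0.17 and 0.25 CPM to 2.63 and 1.86 CPM (2.91 ± 0.45). Cdc20, which activates the anaphase-promoting complex once the checkpoint is satisfied, went from 1.28 and 1.43 CPM to 10.8 and 19.96 CPM (3.35 ± 0.49). These 3 were called, while Mad2l1, the checkpoint protein that binds Cdc20, was at 4.45 and 4.08 CPM before SE and at 7.59 and 7.45 CPM at 2 days (0.81 ± 0.36, adjusted p = 0.25).

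Among mitotic chromosome genes, Top2a, the topoisomerase that untangles sister chromatids, went from 0.41 and 0.91 CPM to 8.69 and 11.5 CPM (log2 difference 3.81 ± 0.44, adjusted p = 0.0014). Mki67 went to 5.64 and 7.26 CPM (3.40 ± 0.63, adjusted p = 0.012). Both were called, and neither overlapped its pre-SE range.

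In the list of spindle, kinesin and cytokinesis genes 6 of 7 were called. Kif11, the kinesin that pushes spindle poles apart, went from 0.52 and 0.85 CPM to 5.81 and 10.9 CPM (log2 difference 3.39 ± 0.60). Kif23 and Kif20a, kinesins of the central spindle and cytokinesis, went from 0 and 0.33 CPM to 2.33 and 3.30 CPM (3.79 ± 0.74), and from 0.17 and 0.23 CPM to 1.61 and 3.20 CPM (2.99 ± 0.66), respectively. Prc1, which bundles microtubules of the central spindle, went from 0.83 and 1.14 CPM to 9.75 and 17.9 CPM (3.63 ± 0.53). None of these 4 genes overlapped its pre-SE range. Tpx2, the spindle assembly factor that activates Aurka, went from 2.00 and 1.80 CPM to 9.2 and 13.8 CPM (2.51 ± 0.42). Nusap1, a microtubule-binding spindle protein, went from 0.21 and 0.29 CPM to 3.86 and 4.35 CPM (3.59 ± 0.48). Cenpe, the kinetochore kinesin, was at 0.62 and 0.66 CPM before SE and at 2.29 and 2.87 CPM at 2 days and missed the threshold (1.85 ± 0.50, adjusted p = 0.062).

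In the licensing and helicase list 4 of 11 members were called, with both 2 days mice above both pre-SE mice in all 11. The helicase subunits Mcm3 and Mcm5 went from 2.97 and 1.72 CPM to 9.88 and 10.7 CPM (log2 difference 2.13 ± 0.48, adjusted p = 0.031), and from 3.17 and 2.63 CPM to 11.6 and 14.7 CPM (2.14 ± 0.54, adjusted p = 0.048), respectively. Cdc45 and Gins1, which complete the active helicase, went from 1.24 and 0.83 CPM to 4.11 and 5.25 CPM (2.09 ± 0.48), and from 0.59 and 0.77 CPM to 2.93 and 4.16 CPM (2.21 ± 0.41), respectively. Mcm5 lost its call in 12 of 19 alternatives. Mcm6, whose promoter held E2F motifs as did those of Mcm3 and Mcm5, was at 11.2 and 16.5 CPM before SE and at 34.4 and 37.25 CPM at 2 days (1.39 ± 0.46, adjusted p = 0.12). The other 6, Mcm2, Mcm4, Mcm7, Cdc6, Cdt1 and Gins2, had log2 differences from 0.73 for Mcm7 to 2.74 for Cdc6 and were not called.

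Of the genes of nucleotide supply, Rrm2, the S phase subunit of ribonucleotide reductase, went from 0.52 and 0.81 CPM to 6.23 and 11.5 CPM (log2 difference 3.51 ± 0.53, adjusted p = 0.0043). Tk1 went from 0.21 and 0.17 CPM to 2.84 and 3.63 CPM (3.52 ± 0.52, adjusted p = 0.0041). Tyms, thymidylate synthase, and Rrm1 were not called, with log2 differences of 1.33 ± 0.42 and 0.75 ± 0.37. The 2 subunits of ribonucleotide reductase therefore differed in level before SE, where Rrm1 stood at 17.3 and 12.8 CPM and Rrm2 under 1 CPM.

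Of polymerases, clamp and ligase genes only Pole, the leading strand polymerase, was called, from 1.10 and 0.83 CPM to 3.77 and 4.59 CPM (log2 difference 2.01 ± 0.43, adjusted p = 0.024). Prim1, the primase, was at 6.90 and 4.99 CPM before SE and at 6.11 and 5.73 CPM at 2 days (0.01 ± 0.33). Rfc5 and Fen1 also overlapped their pre-SE range, with log2 differences of 0.14 ± 0.28 and 0.34 ± 0.42. Pola1, Lig1, Rfc3 and Rfc4 were each above both pre-SE mice, with log2 differences from 0.65 for Rfc3 to 1.0 for Rfc4, and were not called. Pcna, not called, had the largest difference of mean CPM of all members, 48.3 CPM.

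Of chromatin genes, Uhrf1, which recognizes newly copied hemimethylated DNA, went from 0.38 and 0.33 CPM to 3.94 and 6.54 CPM (log2 difference 3.51 ± 0.59, adjusted p = 0.0071). Dnmt1, the methyltransferase that Uhrf1 recruits, was at 26.9 and 36.2 CPM before SE and at 35.9 and 37.5 CPM at 2 days (0.23 ± 0.30). Chaf1b, a subunit of the chromatin assembly factor CAF-1, was at 0.24 and 0.23 CPM and then at 1.74 and 2.91 CPM (2.81 ± 0.77, adjusted p = 0.062). Its partner Chaf1a was at 3.79 and 3.06 CPM and then at 4.45 and 4.63 CPM (0.40 ± 0.42).

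**Figure D3:**
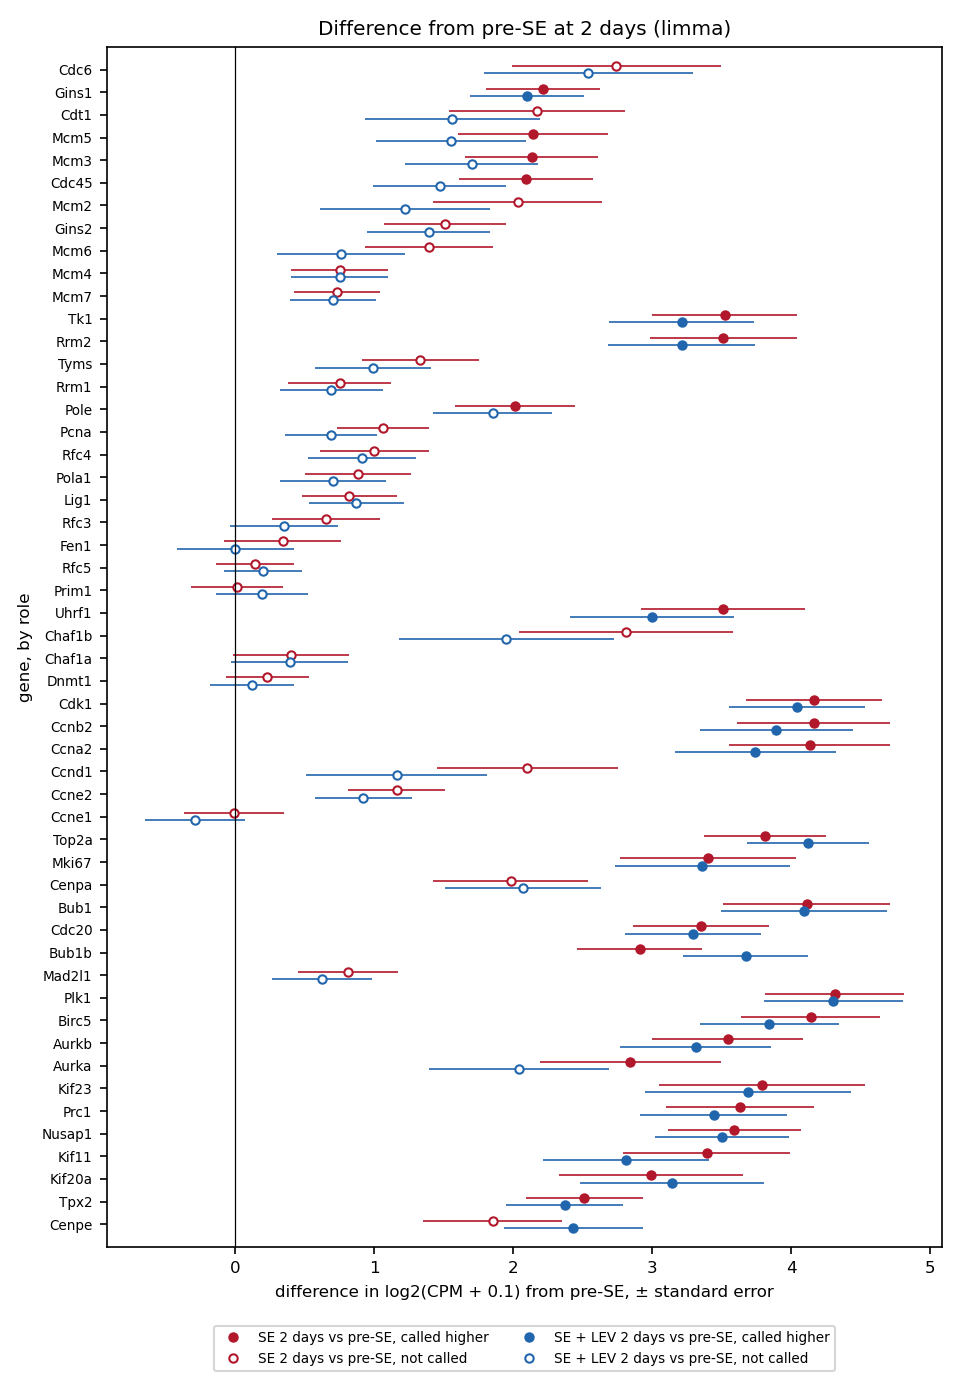
Difference in log2(CPM + 0.1) from pre-SE for each member at 2 days, in SE (red) and SE + LEV mice (blue), with standard errors; filled points were called higher (limma, adjusted p of at most 0.05), open points were not. Both comparisons share the pre-SE mice; 26 members are filled in red and 22 in blue.

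Between 6 h and 2 days 29 of 52 members were called higher (SE 2 days against SE 6 h), beside 3.14% of all genes, and 0 were called lower by limma, also at an unadjusted p under 0.05. The median log2 difference was 2.34 over the members and 0.09 over all genes. Of these 29, 25 were also called against pre-SE, and Ccne2, Cenpe, Mcm6 and Tyms were called against SE 6 h alone. Mcm6 stood at 7.31 and 6.30 CPM in SE 6 h mice, below both pre-SE mice, and its log2 difference from SE 6 h to SE 2 days was 2.38 ± 0.46 (adjusted p = 0.019). Kif23 was called against pre-SE but not against SE 6 h (3.01 ± 0.74, adjusted p = 0.052). For Ccnb2, Bub1, Aurkb and Tk1 the SE 6 h mice held at most 3 tags each, so that the lower SE 2 days mouse was at least 30.1-fold higher for Ccnb2, 18.1-fold for Bub1, 11.3-fold for Aurkb and 13.8-fold for Tk1, taking 3 tags per library as the floor. Pcna, Rrm1 and Cenpa had negative log2 differences between 6 h and 2 days, -0.39, -0.24 and -0.80, and were not called. Without SE 6 h mouse 1, 15 members were called, without SE 6 h mouse 2, 14, without SE 2 days mouse 1, 16, and without SE 2 days mouse 2, 12.

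The SE 6 h levels from which these members differed at 2 days are given here, each followed by the log2 difference of SE 2 days from SE 6 h and its standard error. Of cyclins and their kinase, Cdk1 stood at 0.35 and 0.41 CPM (4.41 ± 0.49), Ccna2 at 0.26 and 0.27 CPM (5.01 ± 0.58), Ccnb2 at 0.06 and 0.07 CPM (5.42 ± 0.55) and Ccne2 at 3.85 and 3.63 CPM (1.58 ± 0.35). Of mitotic chromosome genes, Top2a stood at 0.42 and 0.69 CPM (3.98 ± 0.44) and Mki67 at 0.19 and 0.00 CPM (5.25 ± 0.63). Of checkpoint genes, Bub1 stood at 0.03 and 0.07 CPM (4.78 ± 0.60), Bub1b at 0.19 and 0.21 CPM (2.95 ± 0.45) and Cdc20 at 1.25 and 1.44 CPM (3.36 ± 0.49). No SE 6 h mouse reached an SE 2 days mouse in these genes. Of kinases and survivin, Plk1 stood at 0.19 and 0.21 CPM (4.30 ± 0.50), Birc5 at 0.67 and 0.69 CPM (4.81 ± 0.50), Aurka at 0.64 and 1.03 CPM (2.95 ± 0.65) and Aurkb at 0.06 and 0.07 CPM (4.21 ± 0.54). Among kinesins, Kif11 stood at 0.64 and 0.27 CPM (3.95 ± 0.60), Kif20a at 0.19 and 0.00 CPM (3.80 ± 0.66) and Cenpe at 0.19 and 0.21 CPM (3.15 ± 0.50). Of other spindle genes, Prc1 stood at 1.83 and 0.89 CPM (3.27 ± 0.53), Tpx2 at 1.51 and 1.58 CPM (2.79 ± 0.42) and Nusap1 at 0.22 and 0.21 CPM (3.74 ± 0.48). Most of these stood under 1 CPM at 6 h. Among replication members, Mcm3 stood at 2.28 and 1.92 CPM (2.24 ± 0.48), Mcm5 at 2.98 and 1.64 CPM (2.51 ± 0.54), Cdc45 at 0.77 and 0.96 CPM (2.31 ± 0.48) and Gins1 at 0.71 and 0.96 CPM (1.96 ± 0.41). Of nucleotide supply, Rrm2 stood at 0.83 and 0.82 CPM (3.21 ± 0.53), Tk1 at 0.03 and 0.00 CPM (4.86 ± 0.52) and Tyms at 3.56 and 3.43 CPM (1.75 ± 0.42). Lastly, Pole stood at 0.93 and 0.82 CPM (2.13 ± 0.43) and Uhrf1 at 0.35 and 0.62 CPM (3.19 ± 0.59). The groups did not overlap in any of them.

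In the mice given LEV, most mitosis members were likewise called higher at 2 days, and 4 of 28 replication members were. In SE + LEV 2 days against pre-SE 22 members were called higher, beside 2.83% of all genes, but 4 with only the groups compared in the fit and 14 with a pseudocount of 0.01 CPM. These 22 came with a median log2 difference of 1.90 over the members and 0.02 over all genes. In SE + LEV 2 days against SE + LEV 6 h 23 were called higher, beside 2.06% of all genes. These were the genes called against pre-SE without Kif23 (log2 difference 2.33 ± 0.74, adjusted p = 0.20), together with Gins2 (1.99 ± 0.44, adjusted p = 0.050) and Pole (2.41 ± 0.43, adjusted p = 0.020). Gins2 stood at 1.66 and 2.18 CPM in SE + LEV 6 h and at 12.12 and 5.05 CPM in SE + LEV 2 days, and lost its call in 17 of 20 alternatives. Pole stood at 0.80 and 0.47 CPM and then at 5.08 and 2.71 CPM, and lost its call in 4 of 20. By limma 0 members were called lower in either comparison, while 0 in the first and 1 in the second had an unadjusted p under 0.05 on that side. Plk1 stood at 7.91 and 4.19 CPM in SE + LEV 2 days, Cdk1 at 14.5 and 5.91 CPM, Top2a at 14.3 and 10.8 CPM and Birc5 at 30.4 and 10.3 CPM. All 4 were above every pre-SE and 6 h mouse.

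The log2 differences of these 4 from pre-SE were 4.30 ± 0.50 for Plk1, 4.04 ± 0.49 for Cdk1, 4.12 ± 0.44 for Top2a and 3.84 ± 0.50 for Birc5. Of cyclins and mitotic chromosome genes in SE + LEV 2 days, Ccnb2 stood at 10.4 and 3.20 CPM (3.89 ± 0.55), Ccna2 at 15.1 and 5.26 CPM (3.74 ± 0.58) and Mki67 at 7.16 and 5.38 CPM (3.36 ± 0.63), the difference from pre-SE and its standard error standing in parentheses. Among checkpoint genes and the kinase of the passenger complex, Bub1 stood at 5.33 and 2.88 CPM (4.09 ± 0.60), Bub1b at 3.95 and 3.66 CPM (3.67 ± 0.45), Cdc20 at 23.2 and 8.54 CPM (3.29 ± 0.49) and Aurkb at 3.41 and 1.81 CPM (3.31 ± 0.54). Both mice were above every pre-SE and 6 h mouse in each of these 7 genes. Of spindle genes, Kif11 stood at 8.96 and 3.08 CPM (2.81 ± 0.60), Kif20a at 2.99 and 2.14 CPM (3.14 ± 0.66), Kif23 at 4.41 and 1.48 CPM (3.69 ± 0.74) and Cenpe at 4.46 and 3.37 CPM (2.43 ± 0.50), while Prc1 stood at 17.7 and 7.48 CPM (3.44 ± 0.53), Tpx2 at 14.5 and 7.19 CPM (2.37 ± 0.42) and Nusap1 at 6.13 and 2.38 CPM (3.5 ± 0.48). The called replication members were fewer, where Gins1 stood at 4.02 and 2.59 CPM (2.10 ± 0.41), Rrm2 at 10.6 and 4.44 CPM (3.21 ± 0.53), Tk1 at 4.09 and 1.60 CPM (3.21 ± 0.52) and Uhrf1 at 6.79 and 1.81 CPM (3.0 ± 0.59). These 11 genes did not overlap the pre-SE and 6 h mice either.

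Against pre-SE, the members called in SE 2 days but not in SE + LEV 2 days were Aurka, Cdc45, Mcm3, Mcm5 and Pole, and Cenpe was called in SE + LEV 2 days alone. These comparisons share the pre-SE mice, and a call in one of them does not show a difference between them. Aurka, for example, was at 8.48 and 1.81 CPM in SE + LEV 2 days, around the 5.72 and 8.45 CPM of SE 2 days. Without pre-SE mouse 1, 7 members were called in SE + LEV 2 days against pre-SE, without pre-SE mouse 2, 13, and without SE + LEV 2 days mouse 1, 7. Against SE + LEV 6 h, 12 were called without SE + LEV 6 h mouse 1, 15 without SE + LEV 6 h mouse 2 and 9 without SE + LEV 2 days mouse 1.

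The question of what LEV does to these genes after SE is addressed by the comparisons at the same time. No member was called in SE + LEV 2 days against SE 2 days by limma, and 0 had an unadjusted p under 0.05. The median log2 difference was -0.18 over the members and 0.04 over all genes, and 43 of 52 members had a negative one. The share of negative differences over all genes is not given here. The SE + LEV 2 days mice disagreed, with mouse 2 below mouse 1 in 52 of 52 members and mouse 1 above both SE 2 days mice in 36. The 95% interval held 0 for all 52, and its half-width ran from 0.62 to 1.70 on the log2 scale. These intervals are not adjusted for the number of genes, so that a call needed a larger difference than their half-width. For Cdk1 the difference was -0.12 (95% interval -1.21 to 0.96), for Plk1 -0.01 (95% interval -1.13 to 1.11), and for Mcm2 -0.81 (95% interval -2.16 to 0.54). Ccnd1 had the most negative difference, -0.95 (95% interval -2.40 to 0.50), and Bub1b the most positive, 0.75 (95% interval -0.24 to 1.75).

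At 6 h likewise no member was called by limma in SE + LEV 6 h against SE 6 h, and 2 had an unadjusted p under 0.05, both lower. These were Pcna (log2 difference -1.07 ± 0.33, adjusted p = 0.72) and Rrm1 (-0.83 ± 0.37, adjusted p = 1.0), and both SE + LEV 6 h mice were below both SE 6 h mice in each. No member was called when the LEV difference at 2 days was set against that at 6 h, and 0 had an unadjusted p under 0.05.

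The 2 mice of SE + LEV 2 days differed throughout the module. Mouse 2 was below mouse 1 in 52 of 52 members, with a median ratio of 0.517 (range 0.154 to 0.934), whereas over all genes tested mouse 2 was lower in 44.7% and the median ratio was 1.05. Mouse 1 was above both SE 2 days mice in 36 members and between them in 15. Mouse 2 was below both SE 2 days mice in 45 members, yet above both pre-SE mice in 43. These positions of single mice were counted for the members only. No share over all genes stands beside them, so how far the members depart from other genes is not known. In the other groups the median ratio of mouse 2 to mouse 1 ran from 1.01 to 1.23, and in SE 2 days mouse 2 was the higher in 40 of 52. Over all genes tested, SE 2 days mouse 2 was the lower in 54.8%, with a median ratio of 0.961. Chaf1b showed the widest gap in SE + LEV 2 days, 2.93 against 0.45 CPM, and Prim1 and Bub1b had the narrowest, 6.95 against 6.49 CPM and 3.95 against 3.66 CPM.

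**Figure D4:**
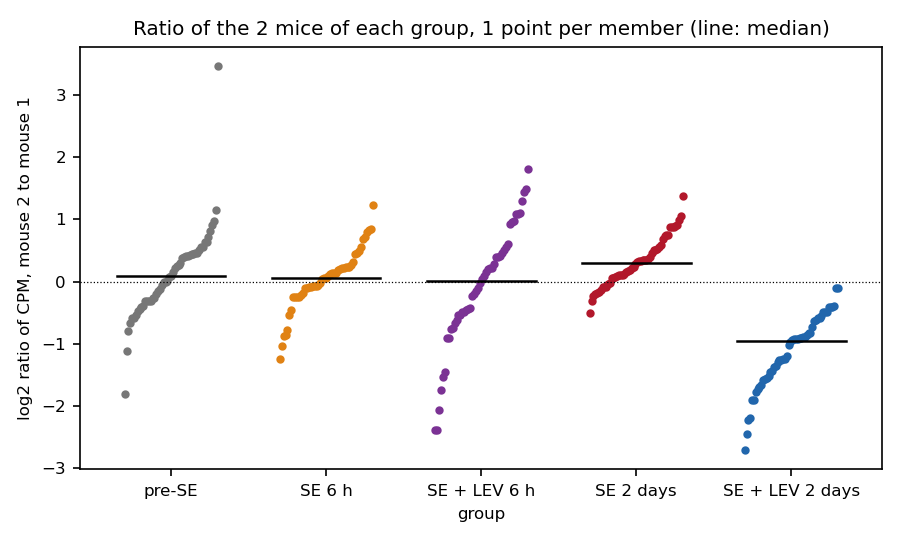
Log2 ratio of CPM in mouse 2 to mouse 1 of each group, 1 point per member with tags in both mice, and the median as a line. All 52 points of SE + LEV 2 days lie below 0, and the other groups straddle it.

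Markers of several cell types moved over the same samples, and their part in the levels of the members was not tested. Of 10 microglia markers, 2 were called lower at 6 h (Tmem119 and P2ry12), and Ptprc, Fcrls and Aif1 were among those called higher at 2 days against pre-SE, while Tmem119 and P2ry12 were not called at 2 days. Their summed CPM was 394 and 461 in pre-SE mice, 294 to 316 in the 4 mice at 6 h, 932 and 1197 in SE 2 days and 1300 and 1008 in SE + LEV 2 days. The lower sum of SE + LEV 2 days was that of mouse 2.

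Of 8 astrocyte markers 3 were called higher at 2 days (Vim, Gfap and Aqp4) and 1 at 6 h (Vim). Gfap, the largest part of the sum in SE 2 days, rose from 246 and 230 CPM to 2282 and 3642 CPM. Slc1a2 stood lower, at 1547 and 1484 CPM before SE and 786 and 809 CPM in SE 2 days. Slc1a3 likewise went from 353.3 and 370.5 CPM to 242 and 198 CPM. Sox9 and Aldh1l1 were above both pre-SE mice and Gjb6 within their range. These other markers were not called in SE 2 days against pre-SE. The sum of the 8 astrocyte markers was 2310 and 2199 CPM before SE, 1972 to 2619 CPM in the 4 mice at 6 h, 3890 and 5641 CPM in SE 2 days, and 5193 and 4175 CPM in SE + LEV 2 days. Of 10 monocyte and neutrophil markers 6 had a row, while Ccr2, Ly6c2, Ngp and Camp were not analysed here, and 1 was called higher at 6 h (Mpo) and 2 at 2 days (Plac8 and Lyz2). Their sum was 5.86 and 5.14 CPM before SE, 8.44 to 15.9 CPM in the 4 mice at 6 h, 36.6 and 71.6 CPM in SE 2 days, and 79.5 and 22.6 CPM in SE + LEV 2 days. Lyz2 alone stood at 30.1 and 63.2 CPM in SE 2 days and at 70.8 and 16.7 CPM in SE + LEV 2 days. Mpo was called lower in SE 2 days than in SE 6 h (log2 difference -3.09 ± 0.72, adjusted p = 0.041 by limma). In this sum the order of the 2 mice in both groups at 2 days was that of most members. The microglia, astrocyte, oligodendrocyte precursor and progenitor sums had the same order.

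Of neural progenitor and neuroblast markers, 9 of 10 had a row. Sox11 was called higher and Hes5 lower in SE 6 h against pre-SE, Nes was called higher and Neurod1 and Hes5 lower in SE 2 days against pre-SE, and the sum stayed between 138 and 212 CPM over all 10 libraries. None of the 7 oligodendrocyte precursor markers was called by limma in that comparison, and their sum ran from 231 to 549 CPM. None of 10 neuronal markers was called by limma, with a median log2 difference of -0.47, none of 8 endothelial and pericyte markers, with 0.72, and none of 3 choroid plexus markers with a row, with -1.48. An unadjusted p under 0.05 was found for 2 oligodendrocyte precursor, 3 neuronal, 3 endothelial and 0 choroid plexus markers. At 6 h the endothelial gene Cdh5 was called higher than before SE (log2 difference 2.10 ± 0.30, adjusted p = 0.0061), and at 2 days it was called lower than at 6 h (-1.31 ± 0.30, adjusted p = 0.039). Ttr stood at 1475 CPM in SE + LEV 2 days mouse 1 and 18.9 CPM in mouse 2. In pre-SE it stood at 5.83 and 1668 CPM, and its relation to the levels of the members was not tested.

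**Figure D5:**
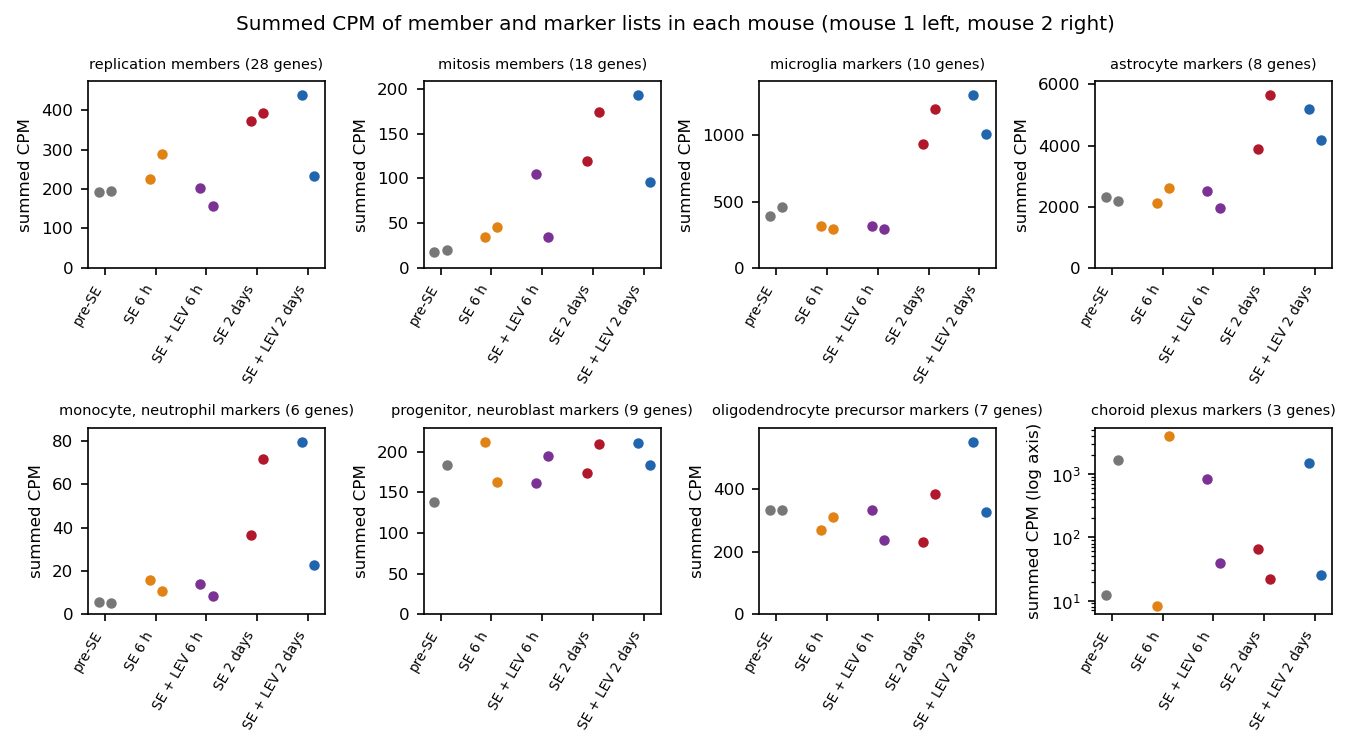
Summed CPM of the 28 replication members, of the 18 mitosis members without cyclins and Cdk1, and of 6 lists of cell type markers in each mouse, with linear axes from 0 except for choroid plexus, which has a log axis. The member, microglia, astrocyte and monocyte sums are higher in SE 2 days than in pre-SE, and the progenitor sum stays between 138 and 212 CPM. In the SE 6 h mice Cenpa holds 23.7 and 34.9 CPM of the mitosis sums, 34.9 and 46.2 CPM. There Pcna holds 92.2 and 160 CPM of the replication sums, 225 and 288 CPM. The median log2 distance from pre-SE is negative in every 6 h mouse for both lists.

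Other genes of the same pathways were described from lists that held no member. SE 2 days against pre-SE had 37 of 53 other mitosis genes called higher and 0 lower, with a median log2 difference of 2.75. The 5 with the largest difference were Ube2c (4.39), Cdca2 (4.28), Dlgap5 (4.24), Hmmr (4.19) and Ska1 (4.07). Ube2c is a ubiquitin-conjugating enzyme that works with the anaphase-promoting complex. At 6 h 3 of the 53 were called higher, Kif4 (3.09), Kif18a (2.91) and Ccnf (1.65). In SE 2 days against SE 6 h 40 were called higher, and in SE + LEV 2 days against pre-SE 32. None was called by limma between SE + LEV 2 days and SE 2 days, where the median was -0.13.

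In SE 2 days against pre-SE, 5 of 38 other DNA replication genes were called higher and 0 lower, with a median log2 difference of 0.45. They were Clspn (3.46), Asf1b (3.11), Orc1 (2.95), Mcm10 (2.75) and Pold4 (2.03). Orc1, of the origin recognition complex, was also the 1 gene of this list called at 6 h (3.25 ± 0.67, adjusted p = 0.030). As among the members, the share called was lower in the replication list than in the mitosis list, a difference given as counts and not tested.

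Among 28 G1/S regulators and CDK inhibitors it had 5 called higher and 1 lower. Cdkn1a, the CDK inhibitor p21, stood at 9.14 and 7.33 CPM before SE, at 91.5 and 113 CPM at 6 h and at 64.7 and 85.0 CPM at 2 days (log2 differences 3.62 ± 0.36 and 3.16 ± 0.36). Myc, a growth-promoting transcription factor, stood at 0.83 and 1.14 CPM before SE, at 10.5 and 21.45 CPM at 6 h and at 10.7 and 11.8 CPM at 2 days. Both were thus high at 6 h, when most members were not. Mybl2, Rbl1 and Cdk6 were the others called higher at 2 days (3.36, 2.22 and 1.85), and Mycn was called lower (-1.65 ± 0.35). In SE + LEV 2 days Cdkn1a stood at 33.0 and 21.15 CPM, below both SE 2 days mice, a difference that was not called.

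In the mm9 annotation (GENCODE vM1) 21 of the 52 members overlapped another gene, and 12 had a gene starting on the opposite strand within 500 bases. Members called in some comparison that overlapped another gene were Tk1 (Afmid), Ccna2 (Exosc9), Ccne2 (Ints8), Cdc20 (Elovl1), Cdc45 (Ufd1l), Gins2 (Gse1 and Gm20388), Kif20a (Cdc23), Nusap1 (Oip5 and a small RNA gene), Pole (Gm15791, Gm15792 and a small RNA gene), Prc1 (6330403N20Rik), Top2a (small RNA genes) and Tyms (Gm17448). Those with an opposite start close by were Aurka (Cstf1), Cdc45 (Ufd1l), Gins2 (Gm10614), Kif20a (Brd8), Nusap1 (Oip5), Pcna (AV099323), Plk1 (Gm15489) and Pole (Pxmp2). Whether tags were assigned by strand is not given in the sources used here, so the levels of the 21 and the 12 members are uncertain to that extent, called or not. Cdk1 (chromosome 10, 68799383 to 68815686), Ccnb2 (chromosome 9, 70255496 to 70269361), Mki67 (chromosome 7, 142881471 to 142908062), Bub1 (chromosome 2, 127626858 to 127657601) and Birc5 (chromosome 11, 117710565 to 117717069) overlapped none.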

How the data were processed

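Capped RNA ends of whole hippocampus (RNA integrity number over 7.0) were sequenced from 10 mice in 5 groups of 2. The authors aligned reads to mm9 with BWA 0.7.17 and unmapped reads with HISAT2 2.0.5, clustered tags with RECLU, discarded clusters under 0.1 CPM, kept regions shared by replicates (BEDtools 2.12.0) and dropped irreproducible or long clusters. How clusters were summed to genes, and by which strand, is not given in the sources used here. The deposited gene table holds CPM, tag counts scaled to library totals, to 2 decimals. Tag totals were inferred from the CPM steps: at these totals every value lay within 0.005 CPM of a whole number of tags, a tolerance that 10.5% to 51.7% of arbitrary values meet, and at totals 1% to 3% off 8.92% to 53.6% of values did. Limits from 3 tags cover counting error only.

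Groups were compared with limma 3.58.1 (R 4.3.3) on log2(CPM + 0.1), which understates changes of low genes, in 1 fit of all 10 libraries, on genes reaching 0.1 CPM in 2 or more libraries. Adjusted p (Benjamini-Hochberg) covered all 15851 genes tested, and genes at 0.05 or less were called. The fit was tested on simulated data. Pseudocount, filter, scaling, replicate block, variance model, groups fitted and single libraries were varied. Adjusted p rest on a spread between mice pooled over all 5 groups and moderated across genes, not on the compared groups alone. A gap between the mice of 1 group, such as SE + LEV 2 days, thus also enters the comparisons of the other groups. Members and lists were chosen with earlier results of these data known. Every called member is named, most with their values, and of the other lists the 5 called genes with the largest difference. For SE + LEV 2 days against SE + LEV 6 h, the SE + LEV 6 h values and log2 differences of most called members are left out. Positions come from GENCODE vM1 (mm9) and promoter stretches from RefSeq (GRCm38.p6). Python 3.11.15 with pandas 2.3.3 and matplotlib 3.10.9 gave the tables and plots. The result of 1 cell type marker is not reported here.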

Additional observations from a re-analysis of the deposited data

Results flagged for a closer look

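The difference from pre-SE was not the same at the 2 times after SE. By the direct test between times (limma), 29 members were higher in SE 2 days than in SE 6 h, and 23 were higher in SE + LEV 2 days than in SE + LEV 6 h.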

How the results depend on the processing

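No called gene value changed direction under any alternative, but 291 of 2002 recomputed values lost their call, and 31 of 103 called pairs of gene and comparison kept it under every alternative. In SE 6 h against pre-SE (2 members called) 1 was called with a pseudocount of 0.01, 0.5 or 1 CPM, with the replicate block or with only the groups compared, 0 without the mean-variance trend, and 0 to 2 with single libraries left out. In SE + LEV 6 h against pre-SE (1 called) 0 were called with a pseudocount of 0.5 or 1 CPM, with the replicate block, without the trend or with only the groups compared, and 0 to 1 with single libraries left out. In SE + LEV 2 days against pre-SE (22 called) 14 were called with a pseudocount of 0.01 CPM, 4 with only the groups compared, and 7 to 29 with single libraries left out. With single libraries left out, 9 to 33 members were called in SE 2 days against pre-SE, 12 to 34 in SE 2 days against SE 6 h, and 9 to 33 higher and 0 to 1 lower in SE + LEV 2 days against SE + LEV 6 h. A group left with 1 mouse was assumed to vary like the others. The cause of these changes was not tested.

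The replicate numbers were not used to pair the mice in the main fit. Deviations of same-numbered mice correlated from -0.436 to 0.343 across genes over the 10 pairs of groups. With 2 mice a group these values do not settle whether same-numbered mice shared a batch. With the replicate block 25 members were called in SE 2 days against pre-SE, 26 against SE 6 h, and 20 in SE + LEV 2 days against pre-SE and against SE + LEV 6 h. With the numbers crossed in SE + LEV 2 days, chosen after seeing the data, 22 and 24 were called in the latter comparisons. Count models on recovered tags were not run, because a stricter reading (low values within 0.1 tag of a whole number for 95% of them) was met in 3 of 10 libraries and not in 7, whose tags are worth few rounding steps. Tag totals and tag counts are therefore inferred values. At the shallowest library 3 tags were 0.285 CPM, which limits members under that level.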
